A study of Homo sapiens with 6 samples.

Results

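The 10 genes described here encode enzymes that build chondroitin sulfate and dermatan sulfate: the initiating transferases CSGALNACT1 and CSGALNACT2, the polymerases CHSY1, CHSY3, CHPF and CHPF2, the sulfotransferases CHST3, CHST11 and CHST15, and the epimerase DSE. They were taken by name, with every probe set that the annotation gives to that gene alone. All 10 were measured, by 22 of the 54613 probe sets and as 10 of the 19775 genes tested. RNA came from MDA-MB-231, a long-established line of triple-negative human breast cancer cells. Cultures given SDC1-siRNA (3 arrays) were set against cultures given a negative control siRNA (3 arrays). All cultures were therefore transfected, the knockdown is in a single cell line, and untransfected cells were not analysed here. Which of the groups moved cannot be read from a difference. The study asked which genes respond when SDC1, the gene of the proteoglycan syndecan-1, is silenced.

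Chondroitin sulfate is a linear sugar chain of alternating glucuronic acid and N-acetylgalactosamine, attached through a short linker to a serine of a core protein. An initiating transferase adds the first N-acetylgalactosamine to the linker, pairs of polymerases extend the chain, sulfotransferases decorate it, and an epimerase turns glucuronic acid into iduronic acid, which makes the chain dermatan sulfate. Heparan sulfate starts from the same linker, and syndecan-1 can carry chains of both kinds.

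Each value is a log2 expression value relative to the median of its probe set over the 6 arrays, so differences between groups can be read from it but levels cannot. A fold change is SDC1 siRNA over control siRNA. A probe set or gene passed at a Benjamini-Hochberg adjusted p under 0.05 in limma, fitted over all probe sets or all genes. Gene values average the probe sets of a gene that lie in its brightest class, a coarse grouping explained with the processing. The replicates are described as independent by the series' design, without saying what was independent.

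SDC1, the targeted gene, fell in the arrays labelled SDC1 siRNA. Its 201287_s_at probe set was at -1.41, -1.29 and -1.37 in the SDC1 siRNA arrays and at 1.37, 1.38 and 1.29 in the control siRNA arrays, and the gene value had a log2 fold change of -2.42, with an SE of 0.0972 (adjusted p = 2.07e-06). Of all genes 28.2% passed, 13% higher and 15.2% lower after SDC1 siRNA. The poly-A spike-in probe sets, which read RNA added before labelling, parted the arrays in 2 sets, each with arrays of both groups. The mean of these probe sets was 0.39 and 0.68 in SDC1 siRNA replicates 1 and 2 and 0.61 in control replicate 1, and between -0.47 and -0.43 in the other arrays. Bulk RNA was measured, so fewer cells with a transcript and less of it per cell cannot be told apart. Differences within the 2 sets, called spike-in batches here although the labels name no batch, are given beside the main results. Each such difference has only a single array in 1 of the groups. Brightness classes did not separate markers of this line from markers of other lines or cell types: VIM, CD44, KRT18 and AXL were in the brightest class and SPARC in the dimmest, but ESR1, EPCAM and PECAM1 were also in the brightest. The identity of the cells therefore could not be read from these values.

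The chondroitin and dermatan sulfate enzymes did not move as one group. CHST15, which adds a second sulfate to sulfated N-acetylgalactosamine, rose 1.81-fold after SDC1 siRNA on 1 of its 2 probe sets. The other had a log2 fold change of -0.17 and did not pass. CHPF, a polymerase partner, and DSE, the epimerase, rose 1.31-fold and 1.29-fold on the probe set of each that passed. One probe set of the 4-O-sulfotransferase CHST11 fell to 66.3% of control, while its other probe sets did not pass. The initiating transferases, CHSY3, CHPF2 and CHST3 did not pass on any probe set. Altogether 4 of the 22 probe sets passed, 3 higher and 1 lower, which is 18.2% against 19.8% of all probe sets (9.7% higher and 10.1% lower). At the gene level 4 of 10 rose (CHST15, CHPF, DSE and CHSY1) and 0 fell in limma, where 28.2% of all genes passed, 13% higher. CHST11 was the 1 gene value of the 10 that was lower with an unadjusted limma p under 0.05. The count of rises was 2, CHST15 and CHPF, without SDC1 siRNA replicate 1 or 2 or control replicate 1 or 2. The share of probe sets that passed is near that of all probe sets. The median log2 fold change was 0.03 for the members' probe sets and 0.01 for all probe sets.

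**Figure D1:**
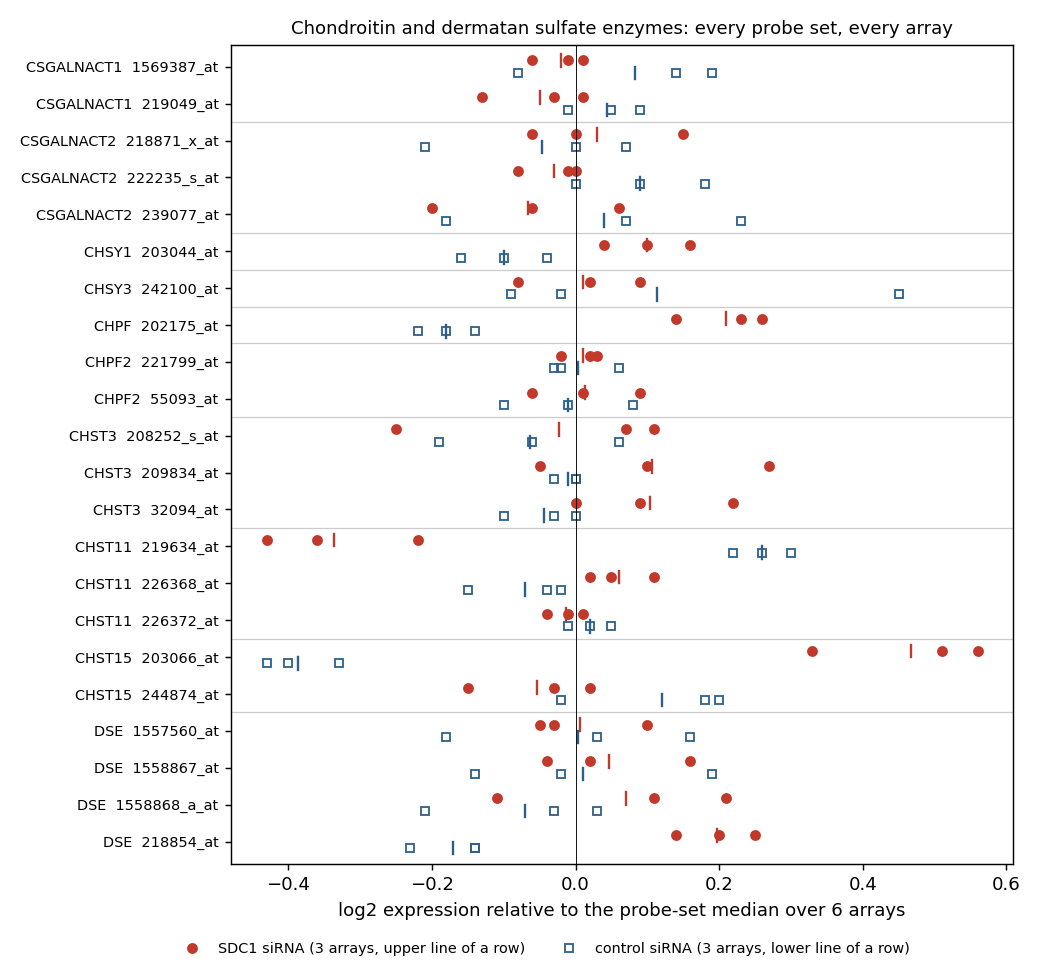
Log2 expression relative to the probe-set median (horizontal axis) for every single-gene probe set of the 10 enzymes (rows), with 3 SDC1 siRNA arrays as filled circles on the upper line of a row and 3 control siRNA arrays as open squares on the lower line, and short vertical bars for group means. The groups stand clearly apart for CHST15 203066_at (0.33 to 0.56 against -0.43 to -0.33), CHPF 202175_at, DSE 218854_at and CHST11 219634_at, and mingle in most other rows.

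Chain initiation showed no change that passed. CSGALNACT1, which adds the first N-acetylgalactosamine and so commits a linker to chondroitin, was read by 2 probe sets that gave log2 fold changes of -0.11 (95% interval -0.30 to 0.09) and -0.10 (-0.26 to 0.07). On 219049_at the arrays were at 0.01, -0.13 and -0.03 after SDC1 siRNA and at 0.09, -0.01 and 0.05 after control siRNA. The SDC1 siRNA arrays lay mostly lower, with overlap. For CSGALNACT2, a second initiating transferase, the 3 probe sets gave -0.12, -0.11 and 0.08, with adjusted p from 0.341 to 0.649. The positive one is 218871_x_at, a probe set whose suffix marks possible cross-hybridisation. At the gene level CSGALNACT1 was at -0.10 (SE 0.0662, adjusted p = 0.315) and CSGALNACT2 at -0.12 (SE 0.067, adjusted p = 0.242).

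Among the polymerases, only CHPF had a probe set that passed. CHPF encodes a chondroitin polymerising factor that works in a complex with a chondroitin synthase. Its only probe set, 202175_at, was at 0.26, 0.14 and 0.23 in the SDC1 siRNA arrays and at -0.18, -0.22 and -0.14 in the control siRNA arrays. All SDC1 siRNA arrays were higher than all control siRNA arrays. The log2 fold change was 0.39 (SE 0.0708, adjusted p = 0.00509), with 0.38 and 0.41 within the spike-in batches and adjusted p of at most 0.026 with any 1 array left out.

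CHPF2, a related glucuronyltransferase, did not pass. Its probe sets 221799_at and 55093_at gave log2 fold changes of 0.00 (95% interval -0.15 to 0.16) and 0.03 (-0.16 to 0.21), so a change as large as the 0.39 of CHPF lies outside both intervals. The difference between the responses of CHPF and CHPF2, taken array by array, was 0.37 on the log2 scale (SE 0.078), and the groups did not overlap. An exact 2-sided permutation test gave p = 0.1, the smallest that 3 arrays against 3 allow, and 0.2 after adjustment over the 6 pairs of related enzymes compared. With 3 arrays against 3, this permutation test cannot reach 0.05.

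CHSY1, a synthase that adds both sugars of the repeat, was near the threshold. Its probe set 203044_at was at 0.16, 0.04 and 0.10 after SDC1 siRNA and at -0.04, -0.16 and -0.10 after control siRNA, without overlap. The log2 fold change of 0.20 had an adjusted p = 0.0913 over all probe sets (SE 0.0724) and 0.0442 over all genes (SE 0.0631), from the same probe set. With 1 array left out the gene-level adjusted p lay above 0.05 in every case, so the call is not stable. It was also lost with a block for spike-in batch (adjusted p = 0.0851) and with arrays centred on their median (0.0537). With gene values made without probe sets ending in _x_at or _s_at it was lost too (0.0512). In that setting CHSY1 kept its value and its log2 fold change of 0.20, and only values of other genes differed. Groups without overlap were found for 6 of the 22 probe sets of the 10 enzymes, while 35.7% of all probe sets had such groups. At the gene level 5 of the 10 had them, and 41.8% of all genes.

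CHSY3, a second synthase, was at 0.02, -0.08 and 0.09 after SDC1 siRNA and at -0.09, 0.45 and -0.02 after control siRNA. Control replicate 2 stood far above the other arrays. The log2 fold change was -0.10 (SE 0.137, adjusted p = 0.673), and 0.06 without that array, so no direction can be given. The responses of CHSY1 and CHSY3 differed by 0.31 (SE 0.204, exact permutation p = 0.2, adjusted p = 0.3).

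**Figure D2:**
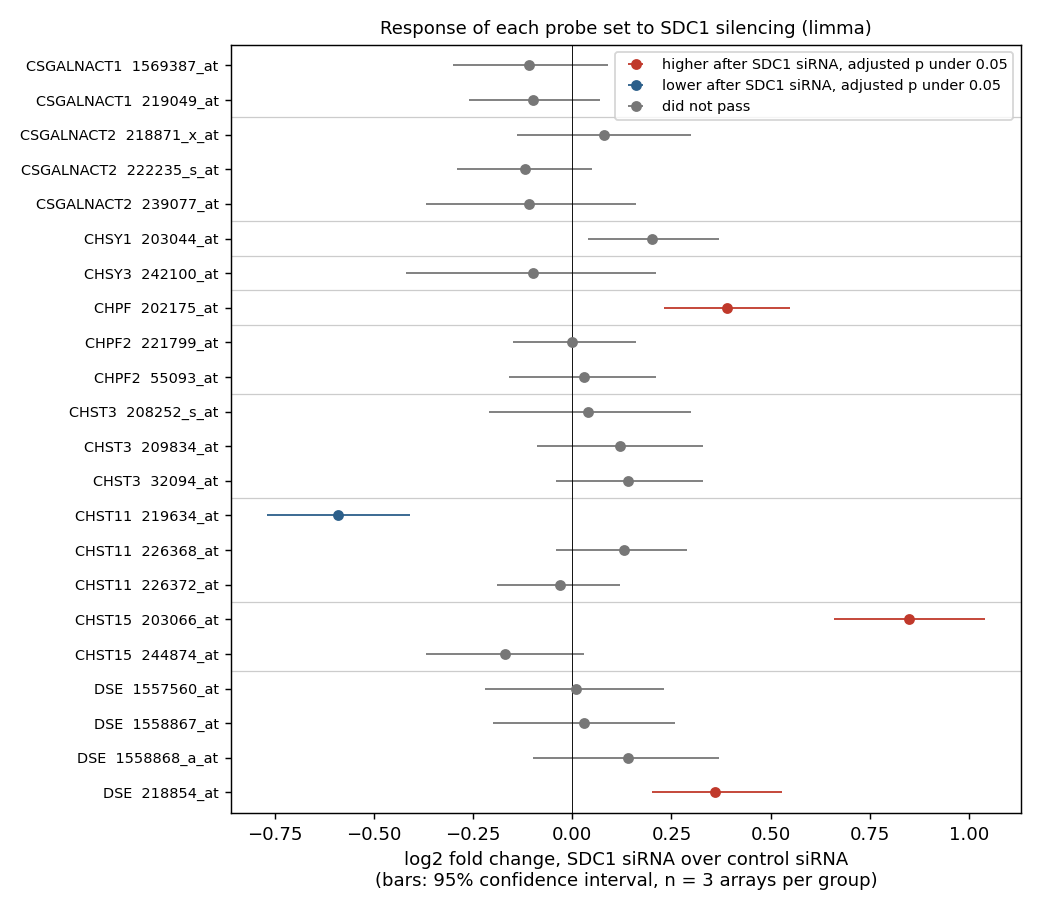
Log2 fold change, SDC1 siRNA over control siRNA (horizontal axis), of the 22 probe sets with 95% confidence intervals from limma, n = 3 arrays per group, coloured by whether the probe set passed. CHST15, CHPF, DSE and CHST11 each had 1 probe set that passed, between -0.59 and 0.85, and every other probe set lay between -0.17 and 0.20.

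The largest change among the 22 probe sets was that of CHST15. This sulfotransferase adds a sulfate at the 6 position of N-acetylgalactosamine already sulfated at the 4 position, giving the highly sulfated chondroitin sulfate E. The bright probe set 203066_at was at 0.56, 0.51 and 0.33 in the SDC1 siRNA arrays and at -0.33, -0.43 and -0.40 in the control siRNA arrays. The gap between the groups exceeded the spread within either. The log2 fold change was 0.85 (SE 0.0824, adjusted p = 0.000198), with 0.86 and 0.75 within the spike-in batches, and between 0.81 and 0.92 with 1 array left out. The gene value, which uses this probe set alone, ranked above 98.9% of all genes by fold change. A second, dimmer probe set, 244874_at, read -0.03, 0.02 and -0.15 after SDC1 siRNA and 0.18, 0.20 and -0.02 after control siRNA. Its log2 fold change was -0.17 (95% interval -0.37 to 0.03, adjusted p = 0.231). With both probe sets averaged the gene value was 0.34 (adjusted p = 0.00662). The probe sets of CHST15 thus disagree, and the files do not say which transcripts each one reads. The genes whose 6 values lay nearest to those of CHST15 were MALL, CLN8-AS1 and SIK2, at Euclidean distances of 0.0844, 0.0849 and 0.111 on the log2 scale and with log2 fold changes of 0.83, 0.82 and 0.81. The upstream sequence of CHST15 is shown because this gene changed most. It covers the 250 bases before the annotated start in RefSeq (GRCh38.p14, chr10:124093599-124093848, minus strand). Capitals mark matches to the motifs searched, here a GC box (GGGCGG) and a partial cyclic AMP response element (TGACGT, searched on both strands).
CHST15: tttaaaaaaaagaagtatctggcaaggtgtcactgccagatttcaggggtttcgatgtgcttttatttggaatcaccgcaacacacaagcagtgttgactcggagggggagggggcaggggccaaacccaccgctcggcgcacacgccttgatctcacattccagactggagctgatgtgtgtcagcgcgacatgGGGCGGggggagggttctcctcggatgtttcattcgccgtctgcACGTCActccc

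CHST11 gave the only fall, and on 1 of its 3 bright probe sets. The enzyme adds sulfate at the 4 position of N-acetylgalactosamine in chondroitin, the most common chondroitin modification. Probe set 219634_at was at -0.36, -0.43 and -0.22 after SDC1 siRNA and at 0.22, 0.26 and 0.30 after control siRNA. All SDC1 siRNA arrays were below all control siRNA arrays. The log2 fold change was -0.59 (SE 0.0791, adjusted p = 0.00101), with -0.61 and -0.50 within the spike-in batches and adjusted p of at most 0.00632 with any 1 array left out. Probe set 226368_at was at 0.11, 0.02 and 0.05 after SDC1 siRNA and at -0.15, -0.02 and -0.04 after control siRNA. Here the groups did not overlap either, with the SDC1 siRNA arrays above. The log2 fold change was 0.13 (95% interval -0.04 to 0.29, adjusted p = 0.293). Probe set 226372_at was at 0.01, -0.04 and -0.01 after SDC1 siRNA and at -0.01, 0.05 and 0.02 after control siRNA, a change of -0.03 (-0.19 to 0.12). The intervals of these probe sets do not reach the -0.59 of the first. Averaged over all of them, the gene value was at -0.17 (SE 0.06, adjusted p = 0.0718) and did not pass. The lower reading of CHST11 therefore rests on a single probe set.

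The upstream sequence of CHST11 (GRCh38.p14, chr12:104456698-104456947, plus strand) is set beside that of CHPF (chr2:219543810-219544059, minus strand, the first of 2 starts listed). They are examples of a gene with a lower reading on a single probe set and a gene that rose. Whether the motifs bear on the changes was not tested. Capitals mark GC boxes in CHST11. In CHPF they mark GC boxes, an ETS motif (TTCCGG) and 2 copies of the full cyclic AMP response element (TGACGTCA).
CHST11: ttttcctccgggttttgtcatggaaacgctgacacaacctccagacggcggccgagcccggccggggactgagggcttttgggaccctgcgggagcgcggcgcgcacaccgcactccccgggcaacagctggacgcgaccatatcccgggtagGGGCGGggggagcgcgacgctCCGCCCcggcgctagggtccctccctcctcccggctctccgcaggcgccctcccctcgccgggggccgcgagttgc
CHPF: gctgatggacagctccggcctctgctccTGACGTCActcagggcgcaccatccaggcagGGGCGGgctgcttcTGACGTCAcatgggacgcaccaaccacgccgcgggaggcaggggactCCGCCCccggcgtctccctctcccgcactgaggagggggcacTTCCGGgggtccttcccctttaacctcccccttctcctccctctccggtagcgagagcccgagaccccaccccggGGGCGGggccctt

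Upstream windows of 9 of the 10 enzymes were read, 15 starts in all. The motifs searched on both strands were the TATA box (TATAAA), the CCAAT box (CCAAT), the GC box (GGGCGG), the E-box (CACGTG), the full cyclic AMP response element (TGACGTCA) and its shorter form (TGACGT, which lies within each full one), the AP-1 site (TGANTCA), the ETS motif (TTCCGG) and the core of the interferon response element. The full cyclic AMP response element was found in 1 window of the 15, that of CHPF, and in 1.65% of the 35116 windows of the table. The shorter form was found in 1 of 2 CHPF starts, in CHST15 and in 1 of 4 DSE starts, against 7.1% of all windows. GC boxes were found upstream of all 9 enzymes read, but not at CHPF start 2, CHST3 start 3 or DSE start 3. They occur in 42.6% of all windows. That share counts single windows, so it cannot be set against a count of enzymes, some of which have several starts. ETS motifs were found upstream of CHSY3 and CSGALNACT2, at both CHPF starts and at CHST3 start 3 alone of its starts (14.5% of all windows). CCAAT boxes were found at 1 CHPF and 1 DSE start (32% of all) and an AP-1 site at 1 CHST3 start (6.57% of all). An E-box was found upstream of CHSY1 (6.34% of all windows). No window held a TATA box (10.7% of all) or the core of the interferon response element (3.02% of all). GC content was 55.6% for CHST15, 73.2% for CHST11 and 70.8% for the CHPF window shown, against a median of 58%. Over the 15 windows it ran from 37.6% (DSE start 3) to 78% (CHST3 start 2). These are matches of letters, and no binding was measured.

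CHST3, which sulfates the 6 position of N-acetylgalactosamine, did not pass on any of 3 probe sets. Their log2 fold changes were 0.04, 0.12 and 0.14, with adjusted p of 0.844, 0.441 and 0.284. On 32094_at the arrays were at 0.00, 0.09 and 0.22 after SDC1 siRNA and at 0.00, -0.03 and -0.10 after control siRNA. SDC1 siRNA replicate 3 was the highest on all 3 probe sets. Within the spike-in batches 209834_at gave 0.03 and 0.29, and a rise above 0.33 lies outside the intervals of all 3 probe sets.

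DSE, the dermatan sulfate epimerase, rose on 1 of its 2 probe sets in the brightest class. Probe set 218854_at was at 0.14, 0.20 and 0.25 after SDC1 siRNA and at -0.14, -0.23 and -0.14 after control siRNA, without overlap. The log2 fold change was 0.36 (SE 0.0716, adjusted p = 0.00754), with 0.31 and 0.44 within the spike-in batches and adjusted p of at most 0.0299 with any 1 array left out. Probe sets 1557560_at, 1558867_at and 1558868_a_at gave 0.01, 0.03 and 0.14 (adjusted p = 0.974, 0.88 and 0.419). The gene value, a mean of 218854_at and 1558868_a_at, rose by 0.25 (SE 0.063, adjusted p = 0.0168). That call was lost without SDC1 siRNA replicate 1 or 2 or control replicate 1 or 2 (adjusted p from 0.0513 to 0.064), and with all probe sets averaged (0.14, adjusted p = 0.112). Placed from all 6 arrays, 1558868_a_at falls in the dimmest class.

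**Figure D3:**
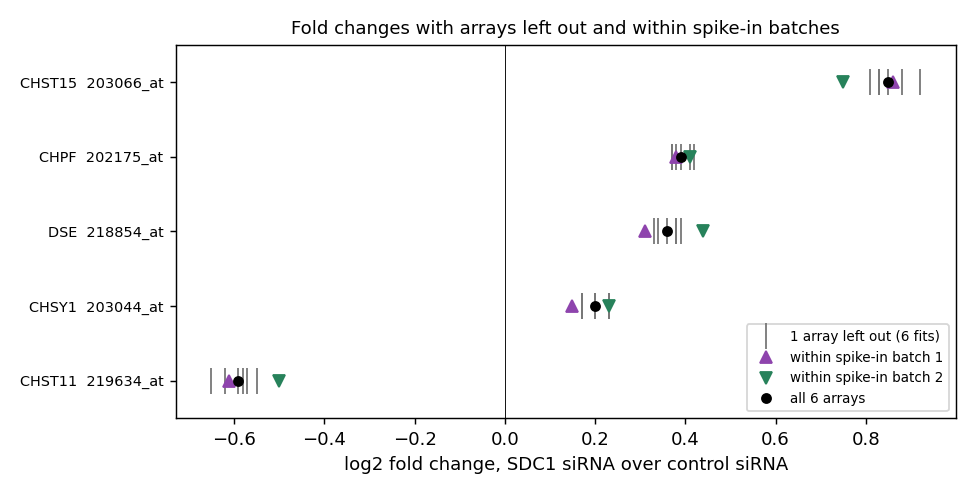
Log2 fold change (horizontal axis) of the probe sets that passed and of CHSY1, over all 6 arrays (circle), with each array left out in turn (bars) and within each spike-in batch (triangles). CHST15, CHPF, DSE and CHSY1 stay above 0 and CHST11 below 0 throughout, with CHST15 between 0.75 and 0.92 and CHST11 between -0.65 and -0.50.

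What the responding probe sets share was read from the annotation. All 4 were designed on a RefSeq mRNA record, as were 8 of the 22, and 0 of the 13 probe sets designed on other GenBank records passed (lowest unadjusted p = 0.0847). Over all single-gene probe sets, 25.3% designed on a RefSeq mRNA record passed, against 22.1% of those designed on other records. The design record of 1 of the 22 is not given in the annotation. Of the 4, 3 were in the brightest class and 1 in the middle class, where 34.3% and 17.9% of all probe sets passed, against 3.47% in the dimmest. A probe set that passed beside another that did not, as for CHST15, CHST11 and DSE, was usual in these data. Of 4534 genes with several probe sets and at least 1 that passed, 80.9% had another that did not, and 5.01% had probe sets that passed in both directions. The first share does not show how often the changes of such probe sets differ from each other.

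The other enzymes that modify the chain all passed at the gene level, 4 higher and 2 lower of 6, against 28.2% of all genes. For these and the remaining pathway genes the values are log2 fold changes, at the gene level unless a probe set is named. The lists of these genes were chosen with earlier results of these data known. Their shares of passed genes are therefore descriptive and not a test of the pathway. CHST12, a second 4-O-sulfotransferase, rose by 0.49 (SE 0.0724, adjusted p = 0.00117), and both of its probe sets passed, at 0.49 and 0.45. Its bright probe set 218927_s_at was at 0.28, 0.38 and 0.17 after SDC1 siRNA and at -0.20, -0.17 and -0.27 after control siRNA. The responses of the gene values differed by -0.66 for CHST11 minus CHST12 (SE 0.1, exact permutation p = 0.1, adjusted p = 0.2), and the groups did not overlap. CHST14, the 4-O-sulfotransferase of dermatan sulfate, rose by 0.30 (adjusted p = 0.00636), and UST, which sulfates uronic acid in both chains, rose by 0.40 (adjusted p = 0.00213) from probe sets at 0.11 and 0.68.

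DSEL, the epimerase related to DSE, rose by 0.41 (SE 0.131, adjusted p = 0.0475), with probe sets at 0.78, 0.35 and 0.04. The gene value leaves out the one at 0.35, which is in the dimmest class. With 1 array left out the gene-level adjusted p ranged from 0.0158 to 0.128, so the call is not stable. On the DSEL probe set 232235_at the SDC1 siRNA arrays were spread from 0.03 to 0.96, with replicate 3 the highest, and the control siRNA arrays from -0.42 to -0.03. The responses of DSE and DSEL were not told apart (difference -0.16, SE 0.192, exact permutation p = 0.6). CHST13, a 4-O-sulfotransferase, fell by 0.26 (adjusted p = 0.0164) on 1 of its 2 probe sets, while the other, dimmer one gave -0.02. CHST7, a second 6-O-sulfotransferase, fell by 0.22 at the gene level (adjusted p = 0.0471), while its only probe set had an adjusted p of 0.0883 over all probe sets. CHST3 and CHST7 differed by 0.34 (SE 0.146, exact permutation p = 0.1, adjusted p = 0.2). Without SDC1 siRNA replicate 2 or control replicate 2, 3 of these 6 genes passed.

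Before the chain, the linker enzymes had 3 of 9 higher and 1 lower, 44.4% against 28.2% of all genes. PXYLP1, the phosphatase that removes phosphate from linker xylose, rose by 1.24 (SE 0.109, adjusted p = 7.94e-05), while its other probe set gave 0.19. B3GAT3, which adds the glucuronic acid that completes the linker, rose by 0.47 on concordant probe sets (0.45 and 0.49). B3GALT6, the second galactosyltransferase of the linker, rose by 0.33, and B4GALT7, the first, fell by 0.30 (adjusted p = 0.006).

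Of 12 measured genes that supply sugar and sulfate donors, 5 rose and 4 fell, 75% against 28.2% of all genes. SLC35D1, which carries UDP-glucuronic acid and UDP-N-acetylgalactosamine into the endoplasmic reticulum, rose by 1.20 (SE 0.0766, adjusted p = 1.53e-05). Its gene value uses 1 of 3 probe sets, which ranged from 0.06 to 1.20. UGP2 and UXS1, on the route to UDP-glucose and UDP-xylose, rose by 0.47 and 0.45, and a second probe set of UGP2 gave 0.25 and did not pass. SLC35D2, another nucleotide sugar transporter, fell by 0.42 (adjusted p = 0.000882) with single probe sets between -0.58 and 0.09. These genes moved in both directions, with a median of 0.00.

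Beyond the enzymes, breakdown and core proteins were also mixed. Of 10 measured breakdown genes 3 rose and 3 fell, 60% against 28.2% of all genes. HYAL4, known as a chondroitin hydrolase, fell by 1.41 (SE 0.0617, adjusted p = 2.47e-06) and HYAL3, of the same family, by 0.82. HYAL2, a hyaluronidase, rose by 0.42. IDS, the iduronate sulfatase, rose by 0.35, with single probe sets between -0.25 and 0.63. Among 24 core proteins that can carry these chains, 3 rose and 7 fell (41.7%), with the targeted SDC1 counted among the falls. TGFBR3, the betaglycan receptor, fell by 1.05 (SE 0.0792) and CSF1, a growth factor made partly as a proteoglycan, rose by 0.61. CSPG5, a neural proteoglycan, rose by 0.65, while its other probe set gave 0.19 and did not pass. At the start of the heparan sulfate branch, which competes for the linker, 0 of 4 genes rose and 1 fell (25%). EXT2, a heparan sulfate polymerase, fell by 0.55 (adjusted p = 0.000174), and EXTL3, which starts the branch, was at 0.04 (adjusted p = 0.683). EXTL2 was at -0.01. EXT1 was at -0.20 (adjusted p = 0.0898), with 3 single probe sets between -0.42 and 0.02, of which 1 passed as lower.

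**Figure D4:**
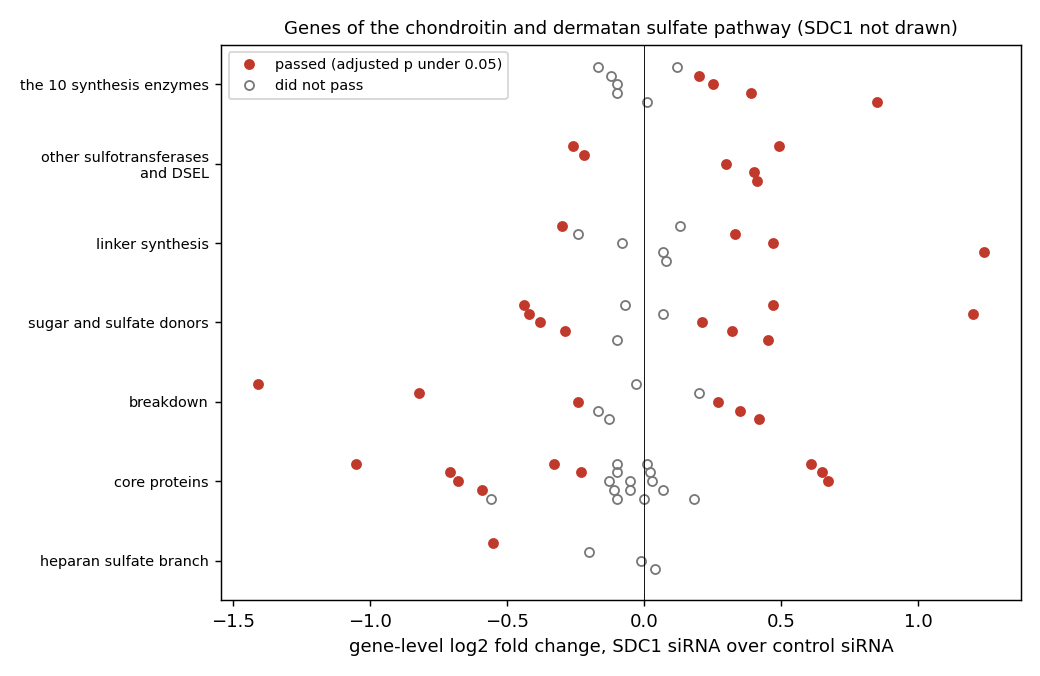
Gene-level log2 fold change, SDC1 siRNA over control siRNA (horizontal axis), for the genes of the chondroitin and dermatan sulfate pathway grouped by role (rows, vertical scatter only for legibility), filled where the gene passed. SDC1 is not drawn. Genes that passed lie on both sides of 0 in every row except the 10 synthesis enzymes and the heparan sulfate branch. Of the 10 enzymes 4 rose and 0 fell, while 13% of all genes rose and 15.2% fell. The call of CHSY1 was lost with any 1 array left out and that of DSE with some. CHST11 passed as lower on 1 probe set but not as a gene. In the heparan sulfate branch 1 fell.

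Altogether 35 of the 64 other measured genes of these lists passed, 54.7% against 28.2% of all genes, 18 higher and 17 lower, with a median log2 fold change of -0.04. Because the lists were chosen with earlier results of these data known, no enrichment can be read from this share. The median absolute log2 fold change was 0.25 in these 64 genes, 0.14 in the 10 enzymes and 0.13 in all genes.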

How the data were processed

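Biotin-labelled RNA of 6 MDA-MB-231 cultures was hybridised to 6 Affymetrix arrays, 1 per sample. The deposited values are log2 expression values made with RMA, per the submitters' processing notes, which give no version or base. Base 2 is taken here because RMA uses it. The median of each of the 54675 probe sets over the arrays is 0 within 1e-06, so the deposited log2 values hold differences and no levels, and depth or detection cannot be read from them. The number of arrays limits the precision.

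Without 62 control probe sets, 54613 were tested with limma 3.58.1 (lmFit and eBayes, R 4.3.3), 2-sided, with Benjamini-Hochberg adjustment over all of them. Of all probe sets 41097 name 1 gene, 1801 several and 11777 none in the platform annotation, and 41043 of the single-gene ones were matched to RefSeq. Brightness classes (levels 2 to 4, 4 to 8 and 8 to 16) were read from how finely the values are stepped in the 3 arrays not below the median. They are coarse, and 86.4% of probe sets kept their class when all 6 arrays were used. The 933 probe sets that lay on no step were counted in the dimmest class, although their brightness is unknown. A gene value averages the probe sets that name only that gene and lie in its brightest class, with those ending in _x_at used only where there was no other, and 19775 genes were tested. Differences between related enzymes were tested with an exact permutation test.

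Named were all 10 enzymes with every probe set, SDC1, the other sulfotransferases and DSEL, up to 4 genes of lowest p in each other list, and the 3 genes nearest to the enzyme with the largest rise. The members and lists were chosen with earlier results of these data known. Alternatives were other normalizations, a robust variance prior, blocks, other gene values, no dimmest class, and each array left out. Same-numbered arrays correlated at -0.01, 0.04 and 0.09 in their deviations from the group means, so the numbers were not taken to pair them. Upstream sequences are RefSeq's, from GRCh38.p14.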

Additional observations from a re-analysis of the deposited data

How the results depend on the processing

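The 4 probe-set calls of the enzymes (3 higher, 1 lower) were kept in number under every alternative run, with each array left out included. At the gene level the 4 rises became 2 to 3 with 1 array left out and 2 without probe sets ending in _x_at or _s_at where others exist. They became 3 with a block for spike-in batch, with arrays centred on their median and with all probe sets averaged, and with all averaged CHST15 was at 0.34. One enzyme fell (CHST11, -0.59) when the probe set of largest t stood for each gene. With 1 array left out, 3 to 6 of the 6 other chain-modifying enzymes passed. In the heparan sulfate branch 2 genes passed, in place of 1, with a block for spike-in batch, with the probe set of largest t and with classes from all 6 arrays, the last chosen after seeing the data. SDC1 was at -2.63 within spike-in batch 2. With the replicate number as a block, 4855 probe sets were higher and 5063 lower, against 5296 and 5532 without it, and it changed no count of the 10 enzymes. Uncalled values near 0 changed sign: with a block for spike-in batch, DSE 1557560_at was -0.05, CHPF2 55093_at -0.02 and the CHPF2 gene value 0.00. Under quantile normalization DSE 1557560_at and CHPF2 221799_at were 0.00, and CHPF2 221799_at was 0.00 also with arrays centred on their median. With 1 array left out, uncalled values ranged from -0.08 to 0.09 (DSE 1557560_at, also -0.04), from -0.04 to 0.12 (DSE 1558867_at, also -0.03), from -0.02 to 0.16 (CHST3 208252_s_at, also 0.00), from 0.00 to 0.14 (CSGALNACT2 218871_x_at), from -0.01 to 0.03 (CHPF2 221799_at and gene value), from -0.02 to 0.07 (CHPF2 55093_at) and from -0.21 to 0.06 (CHSY3, the positive value without control replicate 2). The causes were not tested. Centred values give no signal over background, so dim and bright probe sets are told apart only by class.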
